A study of Mus musculus with 6 samples.

Results

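The 49 probes described here carry gene names that begin with H2-, the symbol of the mouse major histocompatibility complex (MHC), and they stand for 39 genes among 55681 non-control probes on the array. They were taken by that name, with H2-Ke2 and H2-Ke6 left out because these genes do not encode MHC molecules. By gene name, 37 probes (29 genes) belong to class I and 12 probes (10 genes) to class II. The samples were cultures of 3T3 cells, a long-established mouse fibroblast line of embryonic origin, that received GapmeR Ntep or GapmeR control at 50 nM and were harvested after 48 h, with 3 arrays per label from 3 independent experiments. A GapmeR is an antisense oligonucleotide that recruits RNase H to its target RNA, and both groups were transfected in the same line. Values are quantile normalized fluorescence signals in arbitrary units, in which signals under 20 were set to 20. Because each probe binds with its own strength, signals are compared between arrays and never between probes.

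MHC class I molecules are made of a heavy chain, encoded by an H2 gene, and of the light chain beta-2 microglobulin. They carry peptides cut in the cytosol to the cell surface, where CD8 T cells and natural killer cells read them, and nearly all nucleated cells make them. MHC class II molecules carry peptides of engulfed protein to CD4 T cells, and their genes are mostly active in dendritic cells, macrophages and B cells. Interferon raises class I expression in many cell types, and the activators NLRC5 and CIITA act on the promoters of class I and class II genes, respectively.

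Class I heavy chains resemble each other, so some pairs of class I probes that share a run of bases are shown first. Each probe is 60 bases long, written 5′ to 3′ and taken from the scanner files, and the capitals mark the longest run that it shares with its partner. The probe of H2-T23 (mm9, chr17:36167338-36167574, minus strand, longer in the genome than the probe itself) and the dimmer probe of H2-K1 (chr17:34133984-34134043, minus strand) share 29 bases, and 39 of 54 aligned bases match.
H2-T23: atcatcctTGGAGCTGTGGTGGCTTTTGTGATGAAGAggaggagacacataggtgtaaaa
H2-K1: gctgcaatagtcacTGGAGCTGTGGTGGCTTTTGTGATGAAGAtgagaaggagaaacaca

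The dimmer probe of H2-Q2 (chr17:35460007-35460066, plus strand) and the brighter probe of H2-Q10 (chr17:35610036-35610095, plus strand) share 19 bases, and 45 of 50 aligned bases match.
H2-Q2: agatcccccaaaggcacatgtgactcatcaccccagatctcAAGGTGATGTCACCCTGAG
H2-Q10: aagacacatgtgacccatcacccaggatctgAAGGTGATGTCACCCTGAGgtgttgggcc

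The probes of H2-T9 (chr17:36177171-36177230, minus strand) and H2-T10 (chr17:36255918-36255977, minus strand), which gave the largest differences among the class I probes well above background on all 6 arrays, share a run of only 12 bases.
H2-T9: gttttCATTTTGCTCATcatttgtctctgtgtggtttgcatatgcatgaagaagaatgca
H2-T10: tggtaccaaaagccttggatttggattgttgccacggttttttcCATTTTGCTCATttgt
Through their accessions, 41 of the 49 probes matched a gene of RefSeq (GRCm38.p6). The probe named H2-T9 belongs to H2-T22 there, and that named H2-gs10 to H2-Q4. The probe named H2-Q5 is placed by the files at chr17:36246864-36247298 of mm9, between the probes of H2-T9 and H2-T10. The dimmer H2-Q2 probe lies close to the H2-Q1 probe (chr17:35461859-35461918) and farther from the brighter H2-Q2 probe (chr17:35482113-35482172). Whether both probes named H2-Q2 read the same gene was not tested.

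Ntep, named A630089N07Rik in the files, was the targeted transcript. Under the label GapmeR Ntep its probe read 472, 91.5 and 226 in experiments 1 to 3, and under GapmeR control 271, 272 and 361. In experiment 1 the probe thus went against its label, and the groups overlapped (log2 difference -0.48, SE 0.58, limma adjusted p = 0.632; exact permutation test, two-sided p = 0.7). The arrays are therefore called by their labels throughout. All 6 lay on 1 slide, each array had 43.7% to 53.3% of its probes well above background, and none was saturated.

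Of the 49 H2 probes, 17 were well above background on all 6 arrays and 21 on none. All 17 were class I probes. A probe was tested when its mean signal reached 50 in the brighter label, which 22 class I and 4 class II probes did, and it was called at a Benjamini-Hochberg adjusted p under 0.05 in limma over all 30990 tested probes. Class I transcripts were on the whole less abundant under the GapmeR Ntep label. Of the 22 tested class I probes, 9 were called, all of them lower, where 3.21% of all tested probes were called lower and 2.09% higher. The median log2 difference of the 22 probes was -1.00, against 0.06 for all tested probes, and it was -1.21, -0.74 and -1.03 in experiments 1, 2 and 3. A fit with the experiments as blocks called 14 of the 22, again all lower, with 7.31% of all tested probes called lower and 6.54% higher.

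**Figure D1:**
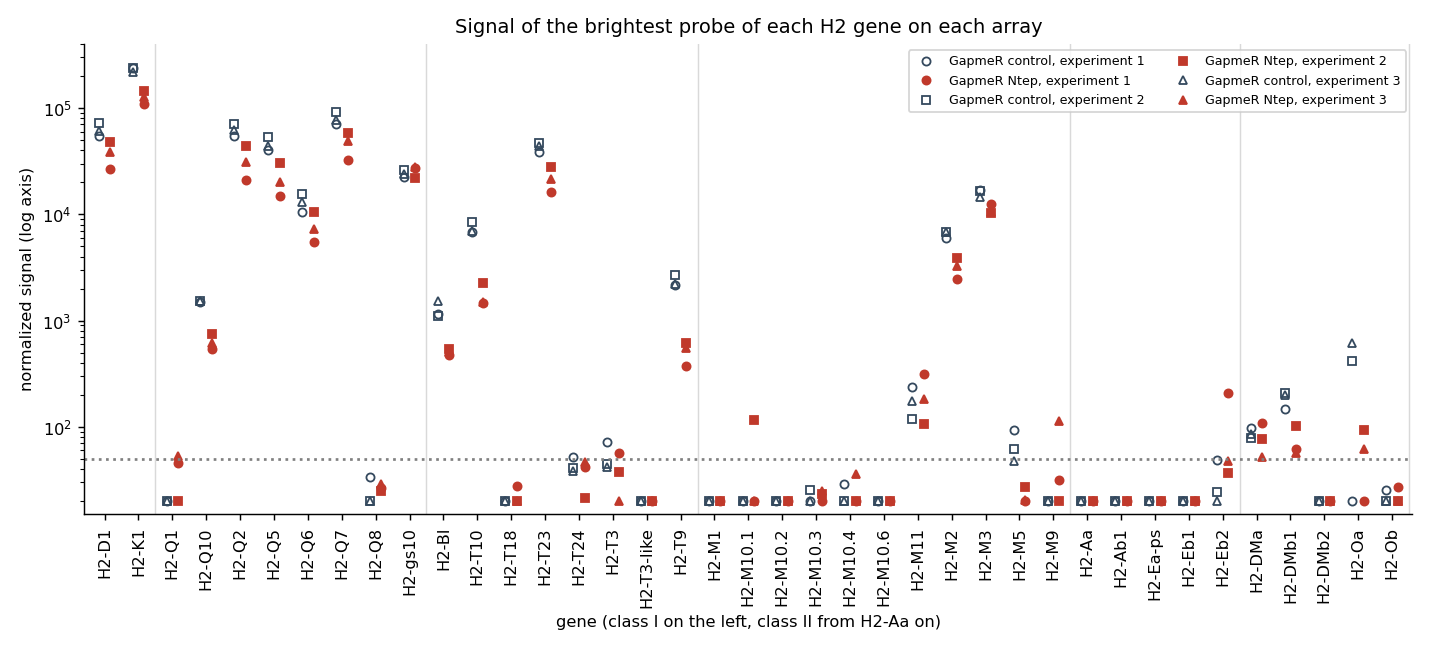
Normalized signal (log axis, arbitrary units) of the brightest probe of each of the 39 H2 genes on each of the 6 arrays, with open dark symbols for GapmeR control, red symbols for GapmeR Ntep and 1 symbol shape per experiment; the dotted line marks a signal of 50. For most class I genes with a clear signal the red symbols lie below the open ones, while those of H2-gs10 and H2-M11 overlap, and of class II only H2-Eb2, H2-DMa, H2-DMb1 and H2-Oa pass a signal of 50 on any array.

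H2-K1 and H2-D1 encode the classical class I heavy chains that present peptides to CD8 T cells. The brighter H2-K1 probe, printed in 10 spots, read 108206, 143362 and 125530.0 on the arrays labelled GapmeR Ntep against 236163, 239247 and 218946 on those labelled GapmeR control. All 3 control arrays lay above all 3 others, and the signal fell 1.85-fold (log2 -0.89, SE 0.18, limma adjusted p = 0.0469). The dimmer H2-K1 probe read 19351, 34594 and 23984 against 48408, 61725 and 53248. Its groups did not overlap either, and it passed only with the experiments as blocks (log2 -1.10, limma adjusted p = 0.0653, with blocks 0.0365). H2-D1 read 26641, 47585 and 38295 against 55068, 72786 and 61213. It did not pass in either fit, although the lowest control array exceeded the highest of the others (log2 -0.78, limma adjusted p = 0.139, with blocks 0.0533).

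The Q region holds nonclassical class I genes, among them those of the Qa-2 antigen (H2-Q6 to H2-Q9) and H2-Q10, which encodes a secreted molecule made in liver. The brighter H2-Q10 probe read 538, 740.0 and 611 on the arrays labelled GapmeR Ntep against 1495, 1525 and 1538 under GapmeR control. This was a fall of 2.43-fold (log2 -1.28, SE 0.18, limma adjusted p = 0.0281). The probe matches the dimmer H2-Q2 probe at 45 of 50 aligned bases, and whether it reads H2-Q10 alone was not tested. The other H2-Q10 probe, close to the floor, was lower in no experiment (55.8, 20.8 and 33.4 against 25.2, 20 and 20). The dimmer H2-Q2 probe fell from 10553 ± 675 to 5334 ± 1061 (mean ± SD, n = 3 each; 4303, 6422 and 5278 against 9819.7, 11149 and 10691), with a limma adjusted p of 0.0489.

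The brighter H2-Q2 probe read 20825, 43568 and 31237 against 55050.0, 70189 and 61725. Its log2 difference was -1.02, and that of the other probe named H2-Q2, which may read another gene, was -1.00. The brighter probe's arrays within a label spread more widely, and it passed only with blocks (limma adjusted p = 0.103, with blocks 0.0475). H2-Q5 read 14816, 30166 and 20226 against 39859, 53816 and 43879 (log2 -1.13, limma adjusted p = 0.0837, with blocks 0.0384). H2-Q6 read 5480.2, 10397 and 7262 against 10582, 15615 and 13129 (log2 -0.80, limma adjusted p = 0.163, with blocks 0.0472). H2-Q7 read 32577, 58108 and 48519 against 70357, 92165 and 77014 (log2 -0.81, limma adjusted p = 0.128, with blocks 0.0522). In each of these 4 probes the arrays labelled GapmeR Ntep stayed below the lowest control array, with the lowest signal in experiment 1 and the highest in experiment 2.

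H2-gs10 was the 1 tested Q region probe that was not lower. It read 27353, 22144 and 27939 on the arrays labelled GapmeR Ntep and 22392, 26343 and 23894 under GapmeR control, so the groups overlapped. Its log2 difference was 0.09, with a 95% interval of -0.35 to 0.52 (limma adjusted p = 0.784). The signals of H2-Q1, H2-Q8 and the dimmer H2-Q10 probe were too low to be tested.

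The T region encodes nonclassical class I molecules as well. H2-T10 and H2-T22 are ligands of some gamma delta T cells, and H2-T23 encodes Qa-1, which shows leader peptides of other class I chains to natural killer cells. H2-T10 read 1462, 2278 and 1508 on the arrays labelled GapmeR Ntep against 6805, 8396 and 6962 under GapmeR control, a fall of 4.29-fold (log2 -2.10, SE 0.23, limma adjusted p = 0.0224). The probe named H2-T9 (H2-T22 in RefSeq) read 376, 618 and 551 against 2157, 2686 and 2229, a fall of 4.65-fold (log2 -2.22, SE 0.24, limma adjusted p = 0.0223). In both, the highest array of one label stayed far below the lowest of the other.

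H2-Bl fell 2.44-fold, with 479, 544 and 510.5 against 1147, 1114 and 1516 (log2 -1.29, limma adjusted p = 0.0288). H2-T23 read 16329.8, 28050.4 and 21405 against 38130.4, 47026 and 43887. Its groups did not overlap, and it passed only with blocks (log2 -1.00, limma adjusted p = 0.0701, with blocks 0.0397). H2-T3, one of the genes of the thymus leukemia antigen, was well above background on only 3 of the 6 arrays and gave -0.55 (limma adjusted p = 0.472). H2-T18, H2-T24 (both probes) and H2-T3-like were not tested.

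Of the M region, H2-M3 presents N-formylated peptides of bacteria and mitochondria, and the H2-M10 genes are known from the vomeronasal organ. The brighter H2-M2 probe, printed in 10 spots, read 2477, 3856 and 3234 against 5967, 6859.8 and 6780.1 (log2 -1.06, SE 0.22, limma adjusted p = 0.0497). The dimmer H2-M2 probe read 68.1, 34.6 and 48.5 against 753, 304 and 379, with a log2 difference of -3.19 (SE 0.42, limma adjusted p = 0.0260). Both probes fell without overlap between the groups, but the dimmer one was well above background on only 1 of 3 arrays labelled GapmeR Ntep, so the size of its fall rests on signals close to background. The 2 probes differed by 2.13 in their log2 differences.

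H2-M3 read 12573, 10389 and 10448 against 16822, 16687 and 14675, again without overlap, and did not pass in either fit (log2 -0.53, limma adjusted p = 0.125, with blocks 0.0805). H2-M11 overlapped between the groups, with 312, 107 and 185 against 237, 118 and 173 (log2 0.12, limma adjusted p = 0.893). It turned to -0.27 without GapmeR Ntep replicate 1. A single H2-M5 probe passed (log2 -1.53, limma adjusted p = 0.0444) although it was well above background on 1 control array alone. It reached the signal for a test through the control label only (mean 67.5 against 22.6). Its 3 control arrays were on average at least 1.26-fold brighter. It gave -0.42 with normexp (limma adjusted p = 0.159) and -0.40 with a floor of 50 (limma adjusted p = 0.733). This probe is among the 9 called class I probes. H2-M9 (log2 1.05) and H2-M10.1 (0.84) were above background on a single array each, and neither passed. The remaining 8 probes of this region, of H2-M1, H2-M10.2, H2-M10.3, H2-M10.4, H2-M10.6, H2-M5 and H2-M9, did not reach the signal for a test.

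**Figure D2:**
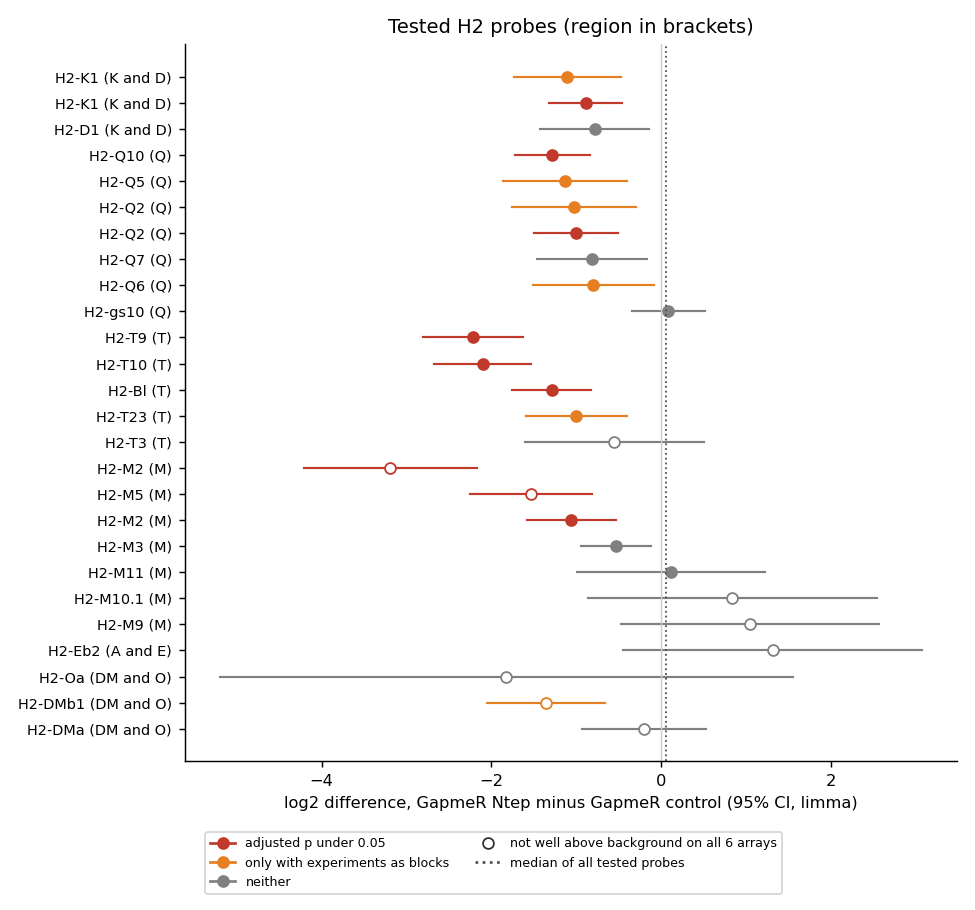
Log2 difference (GapmeR Ntep minus GapmeR control) of the 26 tested H2 probes with its 95% confidence interval from limma (n = 3 arrays per label), sorted by region. Red marks an adjusted p under 0.05, orange a call only with the experiments as blocks, open circles probes not well above background on all 6 arrays, and the dotted line the median of all tested probes (0.06); 18 of 22 class I probes and 3 of 4 class II probes lie left of 0.

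Taking the class I probes together, 18 of 22 were lower, where 45.5% of all tested probes were. In 17 of the 22, all 3 arrays labelled GapmeR Ntep lay below all 3 control arrays, which held for 15.1% of all tested probes. The limits in the study's methods are a 2-fold change and, without adjustment, a p under 0.01. With the p of limma they were met by 11 of the 22, all lower, against 5.06% (lower) and 3.08% (higher) of all tested probes. With the p of the methods' t-test they were met by 8 of the 22. Of the 17 probes well above background on all 6 arrays, 7 were called, 12 with blocks, and 15 did not overlap, where the shares among all probes detected that well were 3.04%, 7.03% and 15.8%. With regions assigned by gene name, medians were -0.89 in the K and D genes, -1.00 in the Q region, -1.29 in the T region and -0.53 in the M region. The probe named H2-Q5 is counted with the Q region, although the files place it between probes of the T region. All these probes were read on the same 6 arrays and their genes resemble each other, so the probes are no independent replicates. This holds most for probes of 1 gene and for the few pairs that share longer runs of sequence.

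The log2 differences of class I probes ranged widely. Relative to the brighter H2-K1 probe on the same array, H2-T9 gave a further -1.33 on the log2 scale, at -1.39, -1.38 and -1.21 in the 3 experiments, and H2-T10 gave -1.21. H2-gs10 was higher than H2-K1 by 0.98 and H2-M3 by 0.36, while H2-D1 and H2-K1 differed by 0.11. In exact permutation tests (two-sided) the p was 0.1 for each of these contrasts and for that between both H2-M2 probes, and 0.5 for H2-D1, with 0.12 and 0.5 after adjustment over the 6 contrasts. A p of 0.1 is the smallest that 3 against 3 arrays allow, and the contrasts were chosen after the values were seen.

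The calls depended on single arrays. Experiment 1 gave the largest class I difference and experiment 2 the smallest. Each called class I probe lost its call when GapmeR control replicate 2 was left out (lowest adjusted p 0.118), and likewise without control replicate 1, control replicate 3 or Ntep replicate 3, although 13 to 17 class I probes kept an unadjusted p under 0.05 in these fits. The loss ran over the whole array: limma called 0 of 31004 tested probes as lower without control replicate 2, 0 of 31223 without Ntep replicate 3, 5 of 31056 without control replicate 3 and 104 of 31215 without control replicate 1. Without Ntep replicate 1, 3 class I probes were called (364 of all probes lower), and without Ntep replicate 2, 8 were (923 lower). The brighter H2-K1 probe lost its call whichever array was left out, with adjusted p-values of 0.0521 to 0.186. The medians stayed between -1.20 and -0.82 with any 1 array left out.

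Class II genes were mostly not detected. H2-Aa, H2-Ab1 (both probes), H2-Ea-ps and H2-Eb1, which encode chains of the I-A and I-E molecules, were at the floor of 20 on all 6 arrays, as was H2-DMb2. Both probes of H2-Ob reached at most 27.4. The 4 tested probes had a median log2 difference of -0.78, with 0.08, -0.53 and -1.26 in experiments 1 to 3, and none was called by limma (1 with an unadjusted p under 0.05, 1 called with blocks, 0 by the methods' t-test). No probe of class II was well above background on all 6 arrays, and the difference between the classes was not tested.

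H2-DMb1 encodes a chain of the DM molecule, which exchanges peptides on class II. It read 62.2, 101 and 56.7 on the arrays labelled GapmeR Ntep against 147, 208 and 197 under GapmeR control, without overlap (log2 -1.36, SE 0.28, limma adjusted p = 0.0522, with blocks 0.0369). Its partner chain H2-DMa overlapped, with 109, 77.6 and 51.9 against 98.1, 78.6 and 85.4 (log2 -0.19, 95% interval -0.93 to 0.54). H2-DMa turned to 0.08 without GapmeR Ntep replicate 3. H2-Oa, a chain of the DO molecule that modulates DM, read 20, 93.8 and 61.5 against 20, 417 and 615. It was at the floor on both arrays of experiment 1, and its interval spanned -5.20 to 1.55. H2-Eb2 was higher by 1.32 (limma adjusted p = 0.315), with 209 on the Ntep array of experiment 1 and at most 49.0 on any other array.

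Sequence shared between class I probes limits how far their values speak for single genes. Among 666 pairs of class I probes, 9 shared a run of at least 12 bases, and in 7 of these both probes were tested. The log2 differences of these 7 pairs lay within 0.02 to 0.31 of each other (median 0.20). The median was 0.90 over the 224 other tested pairs, and 0.49 over the 129 of them in which both probes were well above background on all 6 arrays. Probes with a shared run of at least 12 were called in 4 of 9 cases, and the other class I probes in 5 of 13. Runs shared between probes do not show whether a probe binds transcripts of another H2 gene, and cross-hybridization was not tested. H2-Q6 matched a further probe on the array, LOC68395, over 54 bases, and that probe gave -0.89 where H2-Q6 gave -0.80. Mouse strains also differ in their H2 alleles, and whether the alleles of these 3T3 cells match the probes was not tested.

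**Figure D3:**
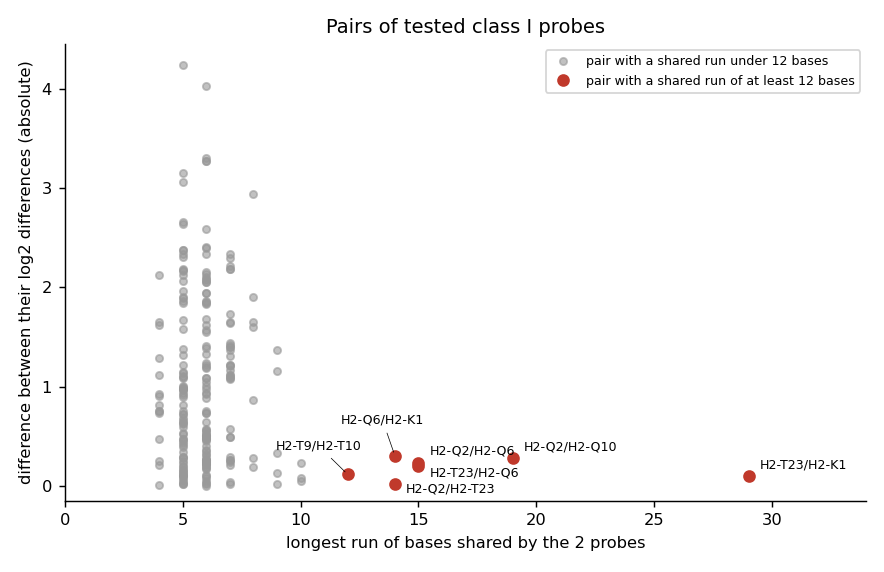
Absolute difference between the log2 differences of 2 tested class I probes (vertical axis) against the longest run of bases they share (horizontal axis, bases), for all pairs of the 22 tested class I probes, with the 7 pairs that share at least 12 bases in red and named. These 7 lie between 0.02 and 0.31, while pairs with shorter runs reach 4.24; no test was made.

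Promoters under 22 class I and 8 class II symbols were matched in RefSeq (GRCm38.p6, 250 bases before to 50 after each start). The known enhancer of classical class I genes holds a kB site beside an interferon-stimulated response element (ISRE), with the SXY module on which NLRC5 and CIITA act further on. The stretch from 200 to 31 bases before the start is shown for a classical gene, a Qa-2 gene and the T region genes H2-T23 and H2-T22. Capitals mark the letters GGGGANTCC (kB site), GAANNGAAA (the ISRE form of classical class I genes), AAANNGAAA (the ISRE core) and TGATGACG (X2 box) on either strand, and matches may overlap.
H2-D1 (chr17:35262894-35263063, plus strand): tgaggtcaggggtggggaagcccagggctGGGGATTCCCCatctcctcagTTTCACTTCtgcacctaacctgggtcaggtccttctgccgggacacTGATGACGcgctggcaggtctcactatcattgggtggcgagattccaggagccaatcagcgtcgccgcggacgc
H2-Q7 (chr17:35438955-35439124, plus strand): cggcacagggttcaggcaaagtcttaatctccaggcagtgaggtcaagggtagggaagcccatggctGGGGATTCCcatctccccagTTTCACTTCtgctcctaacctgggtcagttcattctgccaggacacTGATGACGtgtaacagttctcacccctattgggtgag
H2-T23 (chr17:36032732-36032901, minus strand): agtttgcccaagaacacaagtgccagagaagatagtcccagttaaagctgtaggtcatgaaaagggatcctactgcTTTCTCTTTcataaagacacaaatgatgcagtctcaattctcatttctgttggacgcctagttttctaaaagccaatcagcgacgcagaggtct
H2-T22 (chr17:36042773-36042942, minus strand): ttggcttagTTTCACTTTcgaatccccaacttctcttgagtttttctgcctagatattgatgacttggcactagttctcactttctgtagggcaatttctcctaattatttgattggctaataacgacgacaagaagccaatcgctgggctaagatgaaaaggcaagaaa

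Over the whole windows, the kB letters stand in those of H2-K1, H2-D1, H2-Q6, H2-Q7 and H2-Q10 and in 1.19% of all 32851 promoters of this length. The class I ISRE form stands in 8 class I windows, those of H2-K1, H2-D1, H2-Q4, H2-Q6, H2-Q7, H2-Q10, H2-M2 and H2-M3, in no class II window and in 7.52% of all promoters. The ISRE core stands in H2-T22, H2-T23, H2-T3 and H2-M11 and, of class II, in H2-DMa and H2-Oa (10.6%). The X2 letters stand in H2-D1, H2-Q7 and H2-M3 and, of class II, in H2-Aa (0.794%), and CCAAT, the core of the Y box, in 19 class I and all 8 class II windows (37.4%). The class I ISRE form is thus present in H2-Q4, whose probe (named H2-gs10) overlapped between the groups, as well as in genes that fell. The motifs were chosen with these sequences in view, and a match does not show that a site is used.

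The genes that supply class I molecules with peptide had lower signals as well. Of 14 genes for peptide supply, loading and the light chain, all 14 had a negative log2 difference by their brightest probe. Of the 14, 6 were called and 10 with blocks, and the median log2 difference was -1.35. Among all tested probes, 45.5% were negative, 3.21% were called lower and 7.31% were called lower with blocks. The immunoproteasome subunit genes Psmb9 (log2 -4.70, limma adjusted p = 0.0198) and Psmb8 (-5.89, 0.0223) fell. Psmb8 was well above background on 1 of 3 arrays labelled GapmeR Ntep (20.3, 102 and 82.4), so the size of its fall rests on signals close to the floor. The peptide transporter gene Tap2 (-3.25, 0.0306), the trimming enzyme gene Erap1 (-1.80, 0.0260) and the loading factor gene Tapbp (-1.41, 0.0299) fell too, as did Psmb10. B2m, the light chain of all these molecules, read 57069, 72824 and 79071 against 118300.0, 142555 and 134050.0. It did not overlap and passed with blocks (log2 -0.93, limma adjusted p = 0.0527, with blocks 0.0379), and its difference was close to the -0.89 of the brighter H2-K1 probe.

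Among 13 regulators of MHC transcription, 1 was called by its brightest probe, and 3 with blocks (Nlrc5, Rfx5 and Rfxank), all lower. That Rfx5 probe was well above background on only 1 of 3 arrays labelled GapmeR Ntep (20, 71.2 and 40.7). A second Rfx5 probe of similar brightness gave -1.12, was higher in experiment 2 and was not called (limma adjusted p = 0.461, with blocks 0.328). The shares of all tested probes called lower were 3.21% and, with blocks, 7.31%. In all, 7 of the 13 were lower (median -0.07), where 45.5% of all tested probes were. Nlrc5, the activator of class I genes, was the one called. It read 478, 411 and 451 on the arrays labelled GapmeR Ntep against 18047, 12167 and 8197 under GapmeR control. This was a fall of 27.3-fold (log2 -4.77, SE 0.31, limma adjusted p = 0.0157), and a second, dimmer probe fell by 2.50 on the log2 scale (limma adjusted p = 0.0407, with blocks 0.0520). Ciita, the class II activator, overlapped, with 82.7, 67.9 and 158 against 56.2, 78.2 and 76.0 (log2 0.47, limma adjusted p = 0.454). Irf1, a factor that binds the ISRE, passed by its dimmer probe alone (limma adjusted p = 0.0468). That probe was at the floor of 20 on every array labelled GapmeR Ntep and well above background on only 2 control arrays. It was at least 1.70-fold brighter under GapmeR control. The brighter Irf1 probe gave -0.84 (limma adjusted p = 0.0835).

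**Figure D4:**
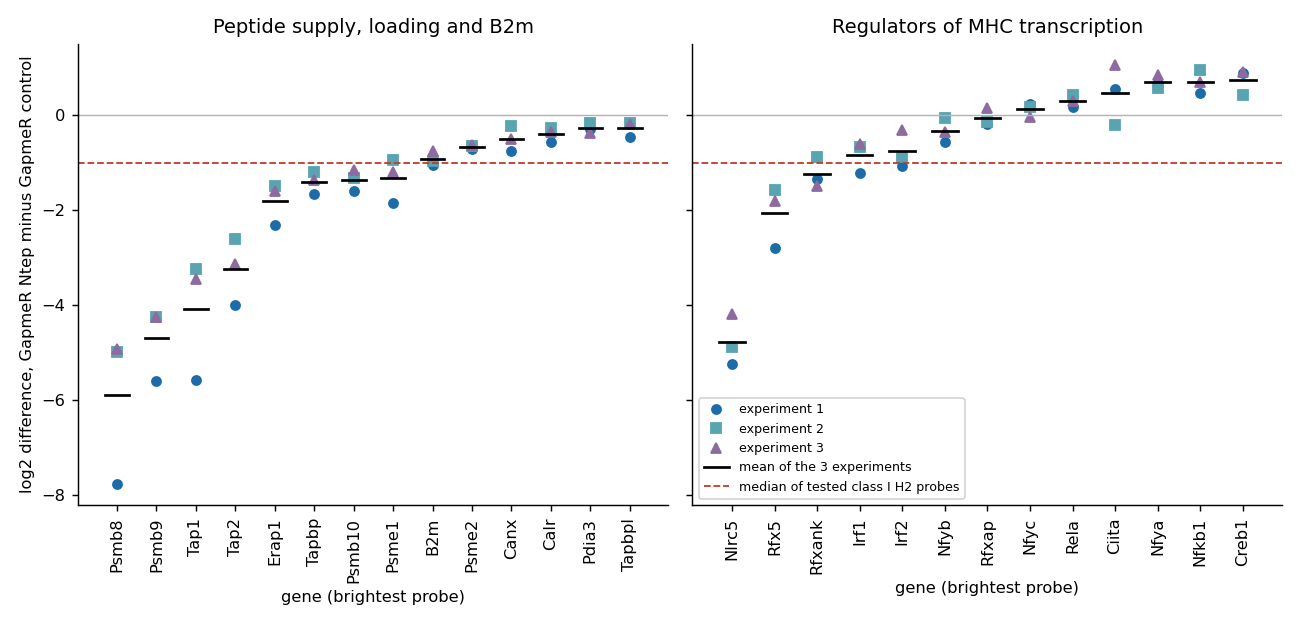
Log2 difference (GapmeR Ntep minus GapmeR control) within each of the 3 experiments (symbols) and their mean (black bars) for the brightest probe of 14 genes of class I peptide supply and loading (left) and 13 regulators of MHC transcription (right). The dashed line marks the median of the tested class I H2 probes (-1.00); Psmb8, Psmb9, Psmb10, Tap1, Tap2, Erap1, Tapbp, Nlrc5 and Rfx5 lie below it in every experiment, and Ciita lies on both sides of 0.

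Of 9 tested class II partners, only Ctss, a protease of the class II pathway, was called without blocks (3.21% of all tested probes were called lower). It was well above background under GapmeR control alone and at least 5.78-fold brighter there (limma adjusted p = 0.0157). Cd40, a receptor on antigen-presenting cells, gave -1.33 and gained a call with blocks (limma adjusted p = 0.0767, with blocks 0.0310). Cd74, the invariant chain of class II, read 510.5, 671 and 636 against 613, 1342 and 1436 and overlapped (log2 -0.81, limma adjusted p = 0.232). Of 13 tested class I-like genes outside the H2 names, such as Cd1d1, Mr1 and the Raet1 genes, limma called none (3 with an unadjusted p under 0.05, 0 by the methods' t-test), and their median was -0.07. Hfe (-2.34) and Fcgrt (-1.56) were called lower with blocks, where 7.31% of all tested probes were.

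None of the cell type markers was called without blocks. The summed signal of 12 fibroblast markers ranged from 478131 to 628083 on the arrays labelled GapmeR Ntep and from 704797 to 776243 under GapmeR control. That sum is weighted towards its brightest probes, among them those of Col3a1, Col1a2 and Vim, and does not speak for the 12 markers together. Of 10 tested markers 9 were lower, where 45.5% of all tested probes were. None was called by limma (2 with an unadjusted p under 0.05, 0 by the methods' t-test). With blocks 1, Dcn, was called lower, where 7.31% of all tested probes were. Fap was at the floor on all 6 arrays, and Lum on all but 1 control array. For 15 markers of antigen-presenting and other blood cells the sum ranged from 33201.9 to 65009.3 against 17568.2 to 24059.7, so the ranges did not overlap. Most of each sum came from a single Itgam probe, which read 45776.5, 19442.8 and 30884.7 against 14654.6, 10652 and 12952.3. The sum thus does not speak for the 15 markers together. None of the 8 tested markers was called by limma (3 with an unadjusted p under 0.05, 0 by the methods' t-test), and they did not go one way. With blocks Itgam (1.26), Cd14 (1.11) and Csf1r (3.19) were called higher by their brightest probes and Aif1 (-1.28) lower, while a second tested Itgam probe gave -0.03. A second tested Csf1r probe gave 0.44 and was not called (limma adjusted p = 0.267, with blocks 0.109). The shares called with blocks were 6.54% (higher) and 7.31% (lower) of all tested probes. Of the 15, 6 were well above background on no array, among them Ptprc, Adgre1, Tyrobp and Ms4a1. The part of these differences in the class I result was not tested. In such bulk RNA, fewer cells that express a gene and less RNA per cell cannot be told apart.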

How the data were processed

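RNA from each of the 6 cultures was labelled in 1 color and bound to an Agilent mouse array. The authors read the spots with Agilent Feature Extraction 10.7.3.1. The deposited scanner files hold each spot's intensity on a linear scale with the background subtracted (gProcessedSignal), and a deposited series table holds intensity values after quantile normalization with a floor of 20, used here as an alternative alone. The files place probes on mm9, and promoters are from RefSeq (GRCm38.p6).

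From the deposited intensity values, spots of 1 probe were averaged and the arrays quantile normalized over 55681 probes. The log2 values went into limma 3.58.1 (R 4.3.3), unpaired as in the study's parameter sheet, where the mean in the brighter label reached 50. Two-sided p-values were adjusted (Benjamini-Hochberg) over all 30990 tested probes. For the H2 probes, the resulting values differed from the authors' table by at most 0.0821 (log2). Tables were made in Python 3.11.15. The steps were tested on simulated data.

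Pairs come from the study's supplementary sample list, which gives 3 independent experiments. The residuals of same-numbered arrays had correlations of 0.466, 0.3 and 0.254, and other pairs ranged from -0.327 to 0.126, so a fit with experiments as blocks is given where it changes a call. The number of arrays limits the precision. Limma p-values rest on the spread between arrays of the same label, and those with blocks on how much the difference varied between experiments. Both use a spread moderated over all tested probes.

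The members and gene lists were chosen with earlier results of these data known. Per-array values are given for each H2 gene's brightest probe if well above background on all 3 arrays of a label, and for its other probes where their call differs. Of the other lists, called genes are named with at most 5 values, beside B2m, Nlrc5, Ciita and Cd74. Some genes of these lists are not reported here, and the counts leave them out. Alternatives were other normalizations (75th percentile scaling, normexp with an offset of 50), floors, filters, array weights, removal of outlier spots, the methods' t-test, the brightest probe per gene and the omission of each array.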

Additional observations from a re-analysis of the deposited data

How the results depend on the processing

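The class I median kept a negative sign in all alternatives, though it was only -0.015 with a floor of 50. The count of calls moved. Of 22 tested class I probes 9 were called. The count was 5 with 75th percentile scaling (which moved the median of all tested probes from 0.06 to 0.22), 0 by the methods' t-test (16 with an unadjusted p under 0.05, and 8 at a fold of 2 and an unadjusted p under 0.01), 14 with the replicate block and 18 with array weights. Calls over the whole array moved too, from 995 lower and 647 higher to 731 and 487 with 75th percentile scaling, 221 and 214 with a floor of 50, 272 and 292 with no filter, 138 and 147 by the methods' t-test, 2266 and 2026 with the replicate block and 4868 and 5392 with array weights. A floor of 50, which lets every probe pass the filter, left 1 call and a median of -0.015 over 37 probes, and no filter on low signal left 3 calls and a median of -0.32. Leaving out 1 array gave 0 to 8 calls and medians from -1.20 to -0.82. For class II the main count was 0. It was 1 with normexp, with the filter on probes well above background, with the replicate block and without GapmeR Ntep replicate 2 (0 to 1 over the omissions of 1 array), and 2 with array weights. Its median was 0 with a floor of 50 and with no filter, and -1.25 to -0.55 with 1 array left out.

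Among the values of single probes under the alternatives, 303 kept their direction and side of the threshold, 72 lost and 25 gained a call, and 5 changed direction. With normexp H2-M10.1 turned to -0.13 and H2-M9 to -0.11. With 1 array left out, H2-M11 ranged from -0.27 (without GapmeR Ntep replicate 1; -0.14 without GapmeR control replicate 2) to 0.50, and H2-DMa from -0.47 to 0.080 (without GapmeR Ntep replicate 3). None of these had been called. The replicate block gained a call for 6 H2 probes and lost none. The cause of these changes was not tested.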
